A study of Mus musculus with 7 samples.

Results

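OGT, a group of paraspeckle proteins and a pair of abundant nuclear long non-coding RNAs (lncRNAs) were followed at the RNA level in LSK cells. The 9 genes were chosen by symbol and by no rule on measured values, although earlier results of these data were known. They came from the 48440 genes of a table of normalised read counts: Ogt, Pspc1, Nono, Sfpq, Tardbp, Rbm14, Hnrnpk, Neat1 and Malat1. All 9 were found once. LSK cells (Lin- Sca1+ cKit+) are the bone marrow (BM) fraction that holds the haematopoietic stem cells (HSCs) and early multipotent progenitors. The 4 wild-type libraries came from lethally irradiated C57BL/6 mice (9.5 Gy in equal split doses) that had received unfractionated wild-type BM, and the 3 PROSER1 KO libraries from recipients treated in the same way that had received BM with a constitutive endonuclease-made Proser1 deletion. LSK cells were sorted 77 days after transplantation. No marker to separate donor from remaining host cells in this sort was given in the sources used here, and the host share was not measured. Mouse age was not given in the sources used here. The labels name polyA RNA as the molecule and give no shared culture, litter or batch.

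OGT is the enzyme that attaches single O-GlcNAc sugars to serines and threonines of nuclear and cytosolic proteins, and PROSER1 is known as its partner in the TOPD complex with TET enzymes and the DBHS family, which is made up of PSPC1, NONO and SFPQ. Paraspeckles are nuclear bodies built on the long form of the lncRNA NEAT1. NONO and SFPQ coat and stabilise that RNA, RBM14 helps to assemble the body, HNRNPK favours the long over the short form, and TDP-43 (encoded by Tardbp) favours the short form. MALAT1, transcribed beside NEAT1, resides in nuclear speckles, where splicing factors gather.

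Each library held between 33143619 and 45140743 read pairs assigned to genes. Proser1 mRNA was not lower in the libraries labelled PROSER1 KO: its normalised counts were 2019, 2153, 2103 and 2077 in wild-type, against 2464, 2359 and 2338 in PROSER1 KO, a log2 fold change of 0.19 (limma, unadjusted p = 0.00301, adjusted p = 0.204). The RNA level therefore does not check the labels, and every direction given here rests on them. The markers of the LSK gate (Kit, Ly6a, Cd34, Flt3 and 4 others) summed to 96000 to 106429 normalised counts in wild-type, against 98629 to 100150 in PROSER1 KO. RNA of plasma cell genes (Ighm, Igkc, Jchain and 8 others, none at 0) was also present and varied widely, with sums of 2.60e+06, 2.15e+06, 1.54e+06 and 3.75e+06 in wild-type 1 to 4, against 2.10e+06, 1.71e+06 and 2.66e+06 in PROSER1 KO 1 to 3. These were 4.05% to 9.20% of all read pairs in wild-type and 4.48% to 6.79% in PROSER1 KO. Of the 11 plasma cell genes, 10 were lower in PROSER1 KO, among them Ighm (log2 fold change -0.56), the largest part of the sum. The 1 that was higher was Igha (1.10, limma, adjusted p = 0.548), whose groups overlapped. The other summed lists overlapped between the groups: B-lineage markers at 3408 to 6870 against 3472 to 5388, T and natural killer cell markers at 2419 to 3244 against 2539 to 3735, granulocyte and monocyte markers at 31970 to 34911 against 29208 to 34836, erythroid and megakaryocyte markers at 5731 to 7049 against 6464 to 8680, mast cell and basophil markers at 1137 to 1420 against 1192 to 1316, and mitochondrial mRNAs at 450692 to 527843 against 487045 to 522089. The sums can hide single genes. Nkg7 (mean 2403) made up most of the T and natural killer sum, while Cd3g was 697 in PROSER1 KO 1, against 20.9 to 52.9 elsewhere. Mpo (mean 16817) was the largest part of the granulocyte and monocyte sum. Ltf was 1077 in wild-type 1 and 734 in PROSER1 KO 3, against 110 to 334 elsewhere. At an unadjusted p under 0.05 (limma), Pax5 (log2 fold change 0.99), Ebf1 (0.75), Csf1r (0.47), Itga2b (0.24) and Cpa3 (0.23) were higher in PROSER1 KO. Cd4 (-0.61), Ctsg (-0.44) and Mcpt8 (-0.83) were lower at that limit, which 9.73% of all genes met. No gene of these lists passed the limma test used for the members. A difference in the mixture of cells between the groups was not tested.

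The ends of the lncRNAs are shown first, because a gene total in a library of polyA RNA cannot be divided between their differently ended forms. The short form of Neat1 ends behind a polyadenylation signal and receives a polyA tail. The long form and mature Malat1 are instead cut behind a stretch of adenosines that is written in the genome and folds back on upstream uridine-rich elements. Capitals mark the signal AATAAA in the first sequence and the uridine-rich elements and the adenosine-rich tract in the others. All are GRCm38, minus strand, read from GENCODE M21 transcripts: the last 60 bases of the short form (chr19:5842307-5842366), the last 99 of the long form (chr19:5824708-5824806), and 99 bases of Malat1 that end 292 bases before its annotated end (chr19:5795982-5796080).
Neat1 short form: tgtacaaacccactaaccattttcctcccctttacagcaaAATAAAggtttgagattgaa
Neat1 long form: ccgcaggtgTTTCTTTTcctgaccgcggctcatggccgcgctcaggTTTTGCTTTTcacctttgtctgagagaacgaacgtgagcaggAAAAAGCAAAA
Malat1: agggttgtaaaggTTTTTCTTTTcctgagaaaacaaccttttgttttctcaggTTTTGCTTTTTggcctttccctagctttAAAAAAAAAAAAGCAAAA
Searched on the transcript strand, AATAAA lay in the last 60 bases of 27.6% of 139360 annotated mouse transcripts. AAAAAGCAAAA lay in the last 99 bases of 64 of them, from 48 genes, and was the very end of 9, from 4 genes. The Malat1 tract shown, 292 bases before the annotated end of its transcript, lies outside these windows. The long form spans 20771 bases and the short form 3004, the exons of the short form, its end included, lie within the span of the long form, and the normalised count of Neat1 covers both.

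In level per length, the lncRNA Malat1 stood above the coding genes, and Pspc1 was the lowest member. Normalised counts were divided by the kilobases of annotated exon, pooled over all isoforms of a gene. The order therefore depends on the annotation as well as on the counts. Malat1 reached a median of 8964 per kilobase (range 7045 to 10094 over the 7 libraries). The DBHS genes Sfpq and Nono followed with medians of 5007 and 4646, and Hnrnpk with 4513. These 3 overlapped in range and were not separated beyond their spread, although Sfpq was above Nono in 5 of 7 libraries and Nono above Hnrnpk in 6 of 7. Ogt had a median of 3784 per kilobase, below Hnrnpk in 7 of 7 libraries, and Tardbp had 2584. Rbm14 (505) and Neat1 (501) overlapped in range. By mean count Rbm14 was below Pspc1 (2010 against 2235), but its annotated exons were shorter (3910 against 5734 bases). Pspc1 had 383 per kilobase, so that of the summed level per length of the DBHS genes Pspc1 held 3.69% to 4.21%, Nono 45.1% to 49.5% and Sfpq 46.6% to 51.2%. The place of Neat1 depends on the length used: over the 20771 bases of its exons it lay near Rbm14, whereas over the 3004 bases of the short form alone the same counts would be 3466 per kilobase (range 3084 to 4792), between Ogt and Tardbp. These libraries do not say which length applies. How fully polyA libraries captured mature Malat1 and the long form of Neat1, relative to coding genes, was not measured.

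**Figure D1:**
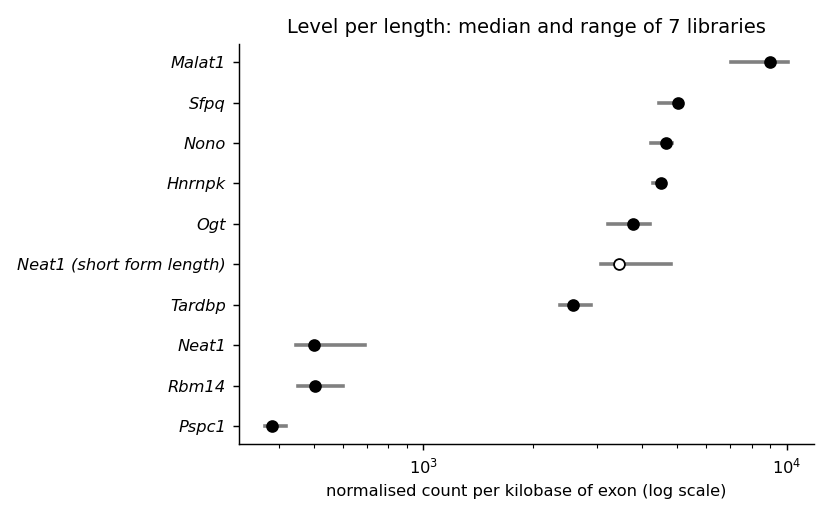
Normalised count per kilobase of annotated exon (log axis) for the 9 genes. Dots are medians and lines the range of 7 libraries, and the open dot divides the Neat1 counts by the length of its short form (median 3466 against 501 over all exons).

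The comparison of PROSER1 KO with wild-type asked whether loss of this OGT partner was accompanied by a different RNA level of OGT, the paraspeckle proteins or their lncRNAs. It was not detectable for any of the 9: none passed an adjusted p under 0.05 with a change over 1.5-fold (limma on log2(normalised count + 1), Benjamini-Hochberg adjustment over the 16251 genes whose mean reached 10). Across all genes tested, 42 passed (0.258%), 20 higher and 22 lower, and 23 passed without PROSER1 KO 2. At an unadjusted p under 0.05 there were 0 of 9 members and 9.73% of all genes. The 95% intervals of all 9 lay within 1.5-fold, and those of 7 of the 9 between 0.8-fold and 1.25-fold, Neat1 and Malat1 being the exceptions. The median log2 fold change of the members was -0.041 and that of all genes tested 0.0015. In these bulk samples, fewer cells with a transcript and less of it per cell cannot be told apart.

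**Figure D2:**
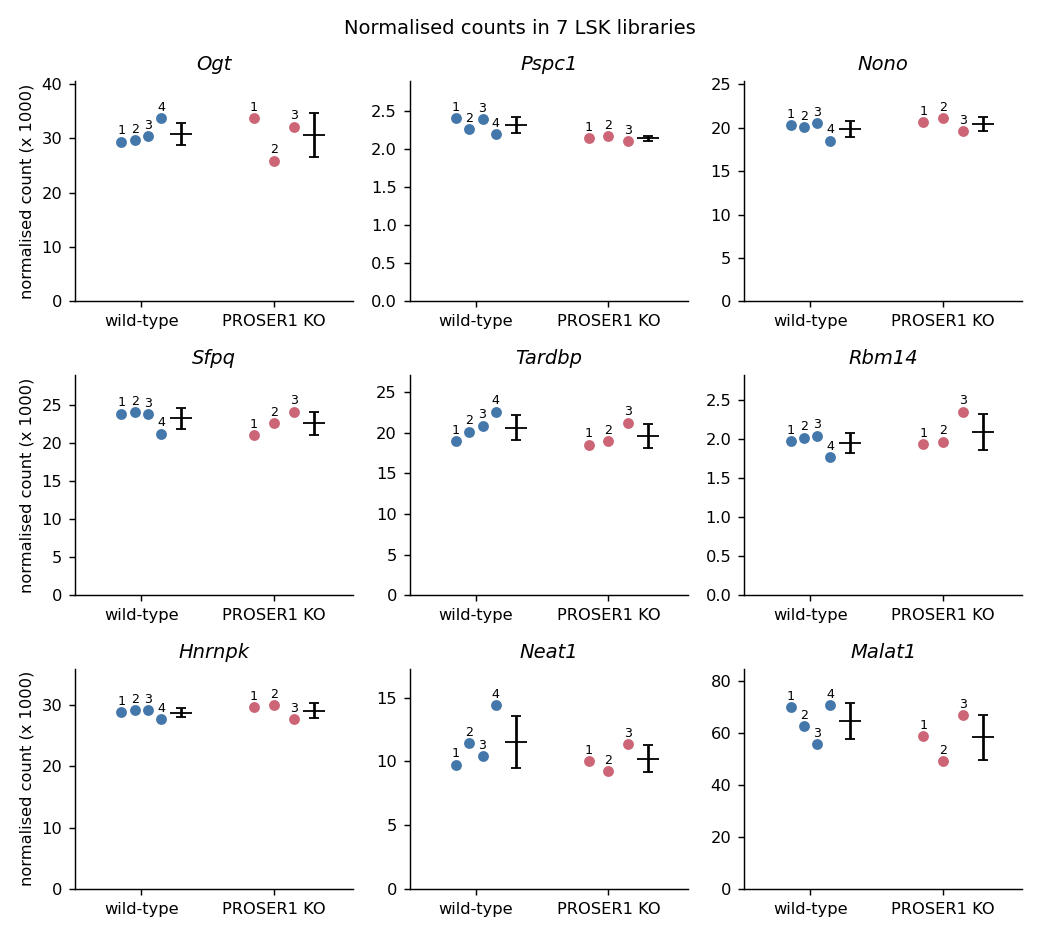
Normalised counts, scaled as the vertical axes state, of the 9 genes in wild-type libraries 1 to 4 (blue) and PROSER1 KO libraries 1 to 3 (red), with the mean and SD of each group in black. Only for Pspc1 do the groups not overlap, with 2194 to 2406 in wild-type, against 2103 to 2165 in PROSER1 KO.

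Ogt (GRCm38 chrX:101640060-101684351, plus strand) was the second most counted member, with 29415, 29707, 30443 and 33819 normalised counts in wild-type, against 33701, 25940 and 32203 in PROSER1 KO. The lowest value and the second highest both lay among the PROSER1 KO libraries, and the groups overlapped. The group mean was 30846 ± 2029 (SD, n = 4) for wild-type and 30615 ± 4117 (SD, n = 3) for PROSER1 KO, with a log2 fold change of -0.018 with a 95% interval of -0.22 to 0.19 (limma, adjusted p = 0.972). Its sign turned without wild-type 4 (0.027) and without PROSER1 KO 2 (0.097). The coefficient of variation of Ogt was 13.4% in PROSER1 KO and 6.58% in wild-type, where counting error alone would give 0.570%.

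Pspc1 (chr14:56720710-56778316, minus strand), the least abundant DBHS gene, had 2406, 2255, 2385 and 2194 normalised counts in wild-type, against 2134, 2165 and 2103 in PROSER1 KO. All 3 PROSER1 KO libraries lay below all 4 wild-type ones, as was the case for 4.83% of all genes tested. Wild-type averaged 2310 ± 102 and PROSER1 KO 2134 ± 30.9 (SD), a log2 fold change of -0.11 (95% interval -0.23 to 0.0036), which is 0.925-fold, and the difference did not pass (limma, unadjusted p = 0.0561, adjusted p = 0.527).

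Nono (chrX:101429318-101448591, plus strand), whose protein pairs with the other DBHS proteins, had 20328, 20046, 20535 and 18524 normalised counts in wild-type, against 20620, 21160 and 19603 in PROSER1 KO. Wild-type 4 was the lowest of the 7 and PROSER1 KO 2 the highest. The log2 fold change was 0.044 (95% interval -0.073 to 0.16, limma, adjusted p = 0.842), and 0.011 without wild-type 4 to 0.074 without PROSER1 KO 3. Sfpq (chr4:127021324-127037013, plus strand), the third DBHS gene, had 23874, 24087, 23747 and 21245 in wild-type, against 21049, 22591 and 24134 in PROSER1 KO. The other wild-type libraries lay close together with wild-type 4 apart below them, while PROSER1 KO 1 was the lowest of all. Its log2 fold change was -0.041 (95% interval -0.18 to 0.10, limma, adjusted p = 0.889), and 0.0088 without PROSER1 KO 1.

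Tardbp (chr4:148612382-148627019, minus strand), the gene of the RNA-binding protein TDP-43, had 18938, 20142, 20884 and 22624 normalised counts in wild-type, against 18557, 18935 and 21273 in PROSER1 KO. The groups overlapped, with wild-type 4 the highest and PROSER1 KO 1 the lowest. The log2 fold change was -0.076 (95% interval -0.24 to 0.084, limma, adjusted p = 0.777), and -0.14 without PROSER1 KO 3 to -0.031 without wild-type 4. Rbm14 (chr19:4800569-4811634, minus strand), a paraspeckle assembly factor, had 1976, 2019, 2044 and 1770 in wild-type, against 1939, 1968 and 2353 in PROSER1 KO. PROSER1 KO 3 stood above the rest and wild-type 4 below them. Its log2 fold change was 0.093 (95% interval -0.091 to 0.28, limma, adjusted p = 0.759), and it ran from 0.0033 without PROSER1 KO 3 to 0.14 without PROSER1 KO 1.

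Hnrnpk (chr13:58391142-58403343, minus strand), which encodes a broadly acting RNA-binding protein, was the steadiest member with 28922, 29183, 29251 and 27682 normalised counts in wild-type, against 29686, 29982 and 27676 in PROSER1 KO. The SD within groups was 0.049 on the log2 scale, smaller than in all but 6.61% of genes tested. The log2 fold change was 0.017 (95% interval -0.091 to 0.13, limma, adjusted p = 0.944), and turned to -0.0011 without wild-type 4 and to -0.0045 without PROSER1 KO 2.

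The lncRNAs varied most from library to library. Neat1 (chr19:5824708-5845478, minus strand) had 9754, 11416, 10411 and 14395 normalised counts in wild-type, against 10002, 9263 and 11366 in PROSER1 KO. Wild-type 4 stood above the other 6 libraries, and PROSER1 KO 2 was the lowest. Wild-type averaged 11494 ± 2051 and PROSER1 KO 10211 ± 1067 (SD), a log2 fold change of -0.16 (95% interval -0.44 to 0.12, limma, adjusted p = 0.718), and with 1 library left out it ran from -0.24 (without PROSER1 KO 3) to -0.046 (without wild-type 4). Malat1 (chr19:5795690-5802672, minus strand) had 69731, 62597, 55724 and 70485 in wild-type, against 58647, 49195 and 66653 in PROSER1 KO. Its highest value was again in wild-type 4 and its lowest in PROSER1 KO 2. Wild-type averaged 64634 ± 6922 and PROSER1 KO 58165 ± 8739 (SD), a log2 fold change of -0.16 (95% interval -0.41 to 0.098, limma, adjusted p = 0.697), and it ran from -0.26 without PROSER1 KO 3 to -0.042 without PROSER1 KO 2.

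The plasma cell marker sum was likewise highest in wild-type 4, and its lowest values were those of wild-type 3 and PROSER1 KO 2. Its part in the lncRNA values was not tested. Neat1 was also taken as a share of Malat1 within each library, where the size factor cancels. It was 14.0%, 18.2%, 18.7% and 20.4% in wild-type, against 17.1%, 18.8% and 17.1% in PROSER1 KO. The means of 17.8% ± 2.73 (SD, n = 4) and 17.6% ± 1.03 (SD, n = 3) differed by less than the spread, and all PROSER1 KO values lay within the wild-type range.

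**Figure D3:**
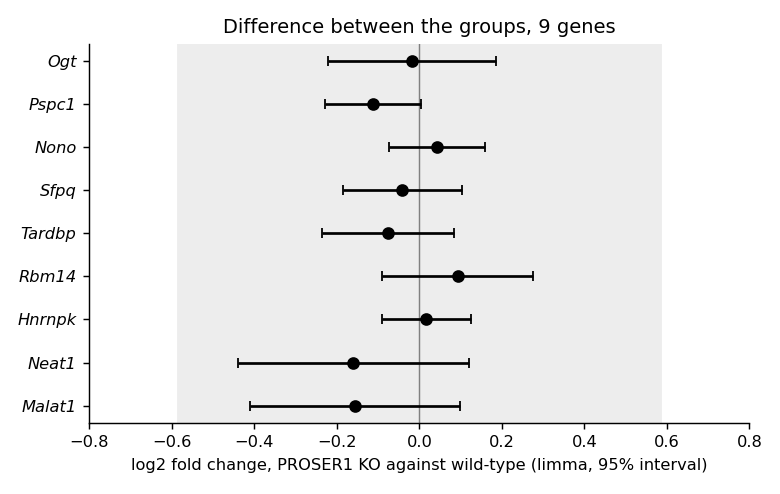
Log2 fold change of PROSER1 KO against wild-type for the 9 genes, with 95% intervals from limma. The grey band marks changes under 1.5-fold, and the intervals, which run from -0.44 for Neat1 to 0.28 for Rbm14, all lie inside it.

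Across the 7 libraries, whatever their group, several members moved together or apart, which is given as a description without a test. Nono and Neat1 ran in opposite order (Pearson r = -0.964, Spearman rho = -0.857, n = 7), and among 11995 genes with a mean of at least 100 only 7 had a lower r with Nono. After the group means were taken out the value was -0.959, and without the 2 libraries whose Nono level was farthest from the median, wild-type 4 and PROSER1 KO 2, it was -0.784. Nono and Hnrnpk ran together (r = 0.902, rho = 0.929, and 0.903 without the same 2 libraries). Tardbp ran with Neat1 (r = 0.883, rho = 0.786, 0.802 without wild-type 4 and PROSER1 KO 1) and against Nono (r = -0.847, rho = -0.857, -0.624 without wild-type 4 and PROSER1 KO 2). Of the 36 pairs of members, 2 had r above 0.8 and 3 below -0.8, and the median over all pairs was -0.052. The share of all gene pairs beyond these limits was not determined, so these counts cannot be set against it. The pairs described here were picked after their values were seen, and Nono with Neat1 was the most extreme of the 36. The relation of Neat1 with Malat1, its genomic neighbour 22.0 kilobases away, was weaker (r = 0.633, rho = 0.571, 0.047 without wild-type 4 and PROSER1 KO 2). Leaving out the 2 libraries farthest from the median narrows the range, which by itself can lower r.

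The values of a library share its size factor, its sort and its mixture of cells. The plasma cell marker sum ran against Nono (r = -0.881, rho = -0.857, -0.623 without wild-type 4 and PROSER1 KO 2) and Hnrnpk (r = -0.811, rho = -0.857, -0.520 without wild-type 4 and PROSER1 KO 3), and with Malat1 (r = 0.863, rho = 0.929, 0.928 without wild-type 4 and PROSER1 KO 2). With Neat1 it gave r = 0.757 and rho = 0.571, and 0.102 without wild-type 4 and PROSER1 KO 2. The part of the marker sum in the relations between members was not tested.

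**Figure D4:**
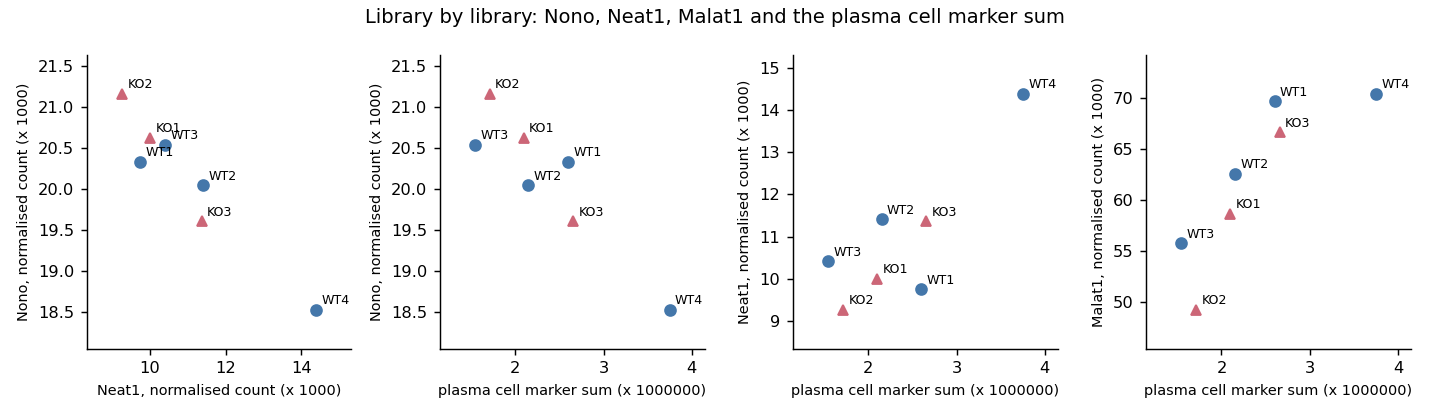
Nono against Neat1, and Nono, Neat1 and Malat1 against the summed plasma cell markers, in normalised counts scaled as the axes state; axes do not start at 0. Circles are wild-type (WT) and triangles PROSER1 KO (KO) libraries; WT4 has the highest sum (3.75e+06), the highest Neat1 (14395) and the lowest Nono (18524).

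The genes whose levels were most like each member over the 7 libraries were found among genes with a mean of at least 100. With 7 points and 11995 genes compared, a high r is reached by many genes. Ogt was most like Kcnq5 (Pearson r = 0.990), Otud5 (0.983) and Ankrd11 (0.980). Among the DBHS genes, Pspc1 was most like Slc7a6 (0.971), Zfp775 (0.971) and Uxt (0.960), Nono like Eif1ax (0.987), Snx1 (0.985) and Ttll12 (0.983), and Sfpq like Ncbp2 (0.986), a nuclear cap-binding protein, Sympk (0.970) and Igsf8 (0.969). Tardbp was most like Fnip1 (0.969), Jpx (0.965) and Gm19391 (0.964), and Rbm14 like Dag1 (0.961), Rad17 (0.953) and Mdc1 (0.950). By rank the likeness was lowest for Rbm14 with Rad17 (Spearman rho = 0.607) and for Sfpq with its 3 genes (0.679 to 0.786). Hnrnpk was most like the ribosomal protein genes Rpl7a (0.984) and Rps9 (0.980) and Rtl8c (0.980). For the lncRNAs, Neat1 was most like AW011738 (0.990), Stard5 (0.977) and Gm44164 (0.976), and Malat1 like AW549877 (0.982), Ggcx (0.979) and Cnot10 (0.975). No member was among the 3 genes most like another member.

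The same held for the genes around these members in function. Of 61 genes of O-GlcNAc cycling, other paraspeckle proteins, nuclear speckle proteins and other nuclear lncRNAs, all tested, 0 passed the test (0.258% of all genes). With so low a share over all genes, 0 of 61 says little about these lists. Of the 61, 2 had an unadjusted p under 0.05 (9.73% of all genes). For 4 the groups did not overlap, 2 of them lower and 2 higher in PROSER1 KO (4.83% and 5.17% of all genes). Neither edgeR nor DESeq2 called any of the 61 at the same limits of adjusted p and fold. The other TOPD genes are not among the 61 and are counted separately below.

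O-GlcNAc cycling and the hexosamine pathway, which makes the UDP-GlcNAc that OGT uses, were represented by 11 genes, 4 higher and 7 lower, with a median log2 fold change of -0.045 against 0.0015 for all genes. Oga, whose enzyme removes O-GlcNAc, had 9028 ± 368 in wild-type, against 8921 ± 181 in PROSER1 KO, a log2 fold change of -0.017. The lowest were Eogt (-0.16), the enzyme for extracellular O-GlcNAc, and Amdhd2 (-0.16), which deacetylates GlcNAc phosphate, and the highest were Gfpt2 (0.26) and Hcfc1 (0.035), a protein that OGT cleaves. Gfpt1, the usual rate-limiting enzyme, had 3798, 3453, 3433 and 4061 in wild-type, against 3182, 3239 and 3522 in PROSER1 KO, and the groups overlapped (log2 fold change -0.15, limma, adjusted p = 0.527).

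The 25 other paraspeckle proteins comprised 12 higher and 13 lower genes, with a median log2 fold change of -0.0037. The lowest was Cirbp, a cold-inducible RNA-binding protein, with 6207, 5931, 6784 and 6623 normalised counts in wild-type, against 5720, 5254 and 4278 in PROSER1 KO. The groups did not overlap, PROSER1 KO 3 being the lowest, and the log2 fold change was -0.34 (95% interval -0.55 to -0.13, limma, unadjusted p = 0.00515, adjusted p = 0.249). With DESeq2 the adjusted p was 0.0110 at a log2 fold change of -0.33, short of the 1.5-fold limit, and without PROSER1 KO 3 the limma log2 fold change was -0.22. Rbm12 was next (-0.16), and Zfp24 (0.083) and Rbm7 (0.078) were the highest.

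Among 16 nuclear speckle proteins, 4 were higher and 12 lower, with a median log2 fold change of -0.018. Srsf5, a splicing factor of the SR family, was the lowest, with 26574, 25901, 25509 and 26275 in wild-type, against 24453, 22262 and 23747 in PROSER1 KO. These groups did not overlap either (log2 fold change -0.15, limma, unadjusted p = 0.0104, adjusted p = 0.327). Srsf2 was next (-0.084), and Srrm2 (0.035) and Rnps1 (0.0092) were the highest.

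Of 9 other nuclear lncRNAs, 3 were higher and 6 lower, with a median of -0.093. Xist, which coats the inactive X chromosome, lay between 1249 and 3003 in wild-type, again highest in wild-type 4, and between 1012 and 1841 in PROSER1 KO (log2 fold change -0.28, and from -0.46 without PROSER1 KO 3 to -0.025 without wild-type 4 and -0.028 without PROSER1 KO 2). The imprinted Airn was next (-0.27), and the imprinted Meg3 (0.65) and Kcnq1ot1 (0.18) were the highest. Meg3 was low, at 9.01 to 24.3 in wild-type, against 27.1 to 33.6 in PROSER1 KO (limma, adjusted p = 0.635).

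The other TOPD genes were Proser1, given above, and the DNA demethylases. Tet1 had a log2 fold change of 0.20 (limma, unadjusted p = 0.0222, adjusted p = 0.407), Tet2 of 0.049 and Tet3 of 0.019. All 4 were above 0, and none passed the test (0.258% of all genes). Proser1 and Tet1, 2 of the 4, had an unadjusted p under 0.05 in limma (9.73% of all genes). Only for Proser1 did the groups not overlap, with PROSER1 KO higher, as was the case for 5.17% of all genes.

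**Figure D5:**
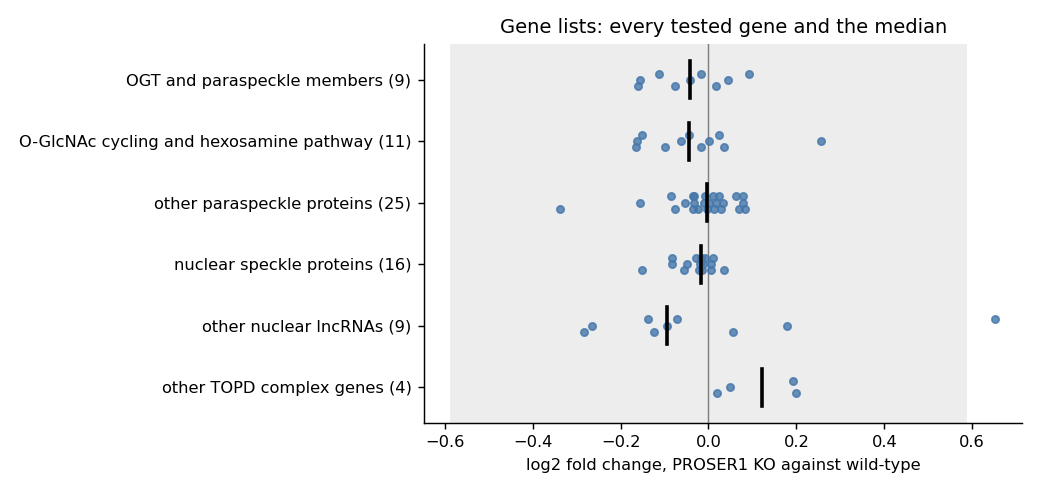
Log2 fold change of PROSER1 KO against wild-type for every tested gene of 6 lists (number of genes in brackets), with the median of each list as a black line and changes under 1.5-fold in grey. The medians lie between -0.093 (other nuclear lncRNAs) and 0.12 (other TOPD genes), and Meg3, at 0.65, is the single gene outside the grey band.

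Position was considered because several members are neighbours. Nono and Ogt lie 191 kilobases apart on the X chromosome, and Malat1 and Neat1 22.0 kilobases apart on chromosome 19, where Rbm14 lies 984 kilobases from Malat1. The nearest tested genes on either side of the members were 16 beside the members themselves. Of these, 0 passed the test (0.258% of all genes), and 2 had an unadjusted p under 0.05 (9.73% of all genes). These 2 were Itgb1bp2, 497 bases from Nono, at 40.6 to 62.5 in wild-type, against 27.8 to 37.6 in PROSER1 KO (log2 fold change -0.61, limma, adjusted p = 0.489), and Gm12941, 9370 bases from Sfpq (1.36, limma, adjusted p = 0.426). The nearest gene that did pass was Gm4779, 106 kilobases from Ogt, singled out after its values were seen. It had 2.88, 5.41, 4.60 and 8.11 normalised counts in wild-type, against 119, 36.4 and 364 in PROSER1 KO (log2 fold change 4.30, limma, adjusted p = 0.0428), and it no longer passed when wild-type 1 was left out (adjusted p = 0.128) or PROSER1 KO 1 (0.145), PROSER1 KO 3 (0.137) or any other wild-type library (0.0768 to 0.116).

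Some counts could be affected by overlapping genes or copies. The strand setting of the counting, which bears on overlaps with the opposite strand, was not stated. It does not bear on overlaps on the same strand. On the opposite strand, Masp2 overlaps Tardbp (mean 20.9), Rmi1 overlaps Hnrnpk (mean 687, against 28912 for Hnrnpk) and Gm37376 overlaps Malat1 (mean 35.7). On the same strand, Gm12940 overlaps Sfpq (mean 1662 against 22961), Gm21992 overlaps Rbm14 (mean 73.8) and Mir7-1 lies in Hnrnpk (mean 34.2). None of these 6 passed the test (0.258% of all genes). Processed pseudogenes with similar sequence were found for 4 members. For Hnrnpk, Gm7964 (94.0% identical over the aligned bases) was counted at 3.41% of its level, for Nono Gm8806 (97.2% identical) at 0.630%, and for Tardbp Gm13886 (94.2% identical) at 0.0749%. Gm4130 (97.4% identical to Hnrnpk), Gm5171 (94.5% identical to Nono) and Gm47636 (86% identical to Sfpq) had no row matched in the table used here. Reads shared with such copies could not be measured, so the levels of Hnrnpk, Nono, Sfpq and Tardbp are uncertain by an unknown amount. The effect of overlapping genes on the counts was not measured either. The levels of the overlapped members, Rbm14 among them, are therefore uncertain too.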

How the data were processed

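The data are RNA-seq of sorted LSK cells, 4 libraries labelled wild-type and 3 labelled PROSER1 KO. The authors trimmed reads with Trimmomatic, aligned them with STAR to mm10 (GRCm38.p6) and counted read pairs per gene with featureCounts (GENCODE M25 in the methods, vM10 in the table's header); versions and strand setting were not given in the sources used here. The deposited values are a signal: counts divided by 1 DESeq2 size factor per library. Dividing each column by its smallest step gave whole reads for 100% of values (tolerance 0.01).

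Genes with a mean of at least 10 were tested with limma 3.58.1 (moderated variances with a trend) on log2(value + 1), with Benjamini-Hochberg adjustment; a call needed adjusted p under 0.05 and a change over 1.5-fold. On recovered reads, edgeR 4.0.16 called 40 genes and DESeq2 1.42.0 called 165. These p-values measure the spread between samples; nothing states separate animals for each. The members, the gene lists (from general knowledge) and the tests were chosen with earlier results of these data known. Named beside the members are, of each list of related genes, the 2 highest and 2 lowest and any that passed (with Oga and Gfpt1 added for their roles after their values were seen), the 3 genes most like each member (Pearson r over 7 libraries), and overlapping or neighbouring genes. Lists of marker genes of the LSK gate and of plasma, B-lineage, T and natural killer, granulocyte, erythroid and mast cells, and of mitochondrial mRNAs, are given as sums. Values of Ighm, Igha, Nkg7, Cd3g, Mpo, Ltf, Pax5, Ebf1, Csf1r, Itga2b, Cpa3, Cd4, Ctsg and Mcpt8 were added after they were seen. Positions and sequences come from GENCODE M21, matched by gene identifier for 48058 of 48440 rows; copies were sought with minimap2 2.31. The script was tested on simulated data. Same-numbered libraries of the groups did not deviate together (correlations 0.0226, 0.0575 and -0.1059), so the replicate number was not used as a block.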

Additional observations from a re-analysis of the deposited data

Results flagged for a closer look

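In 54 genes named here, the 4 wild-type libraries were searched for a value that stood apart from the others by more of the group's range than Dixon's 95% limit for 4 values, which chance alone gives in about 1 gene of 20. It was met by 3. Sfpq was low in wild-type 4, at 21245 normalised counts against 23747 to 24087 in the other wild-type libraries. Taf1, a neighbour of Ogt, was low in wild-type 1 at 5014. Gm21992, which overlaps Rbm14, was low in wild-type 3 at 51.7.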

How the results depend on the processing

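None of the 9 members and none of the genes of the 5 lists of related genes passed both limits in the limma fit or in any of the 12 alternative settings and 7 fits that each left out 1 library, and the lowest adjusted p of a member in any of them was 0.461 (Pspc1). The number of genes called among all genes was 42 and moved to 17 without the variance trend, 80 with robust variances, 69 without antigen receptor variable genes and 165 with DESeq2. Leaving out 1 library gave 23 (without PROSER1 KO 2) to 42. The cause of these moves was not tested. The replicate block, by a number that does not pair these samples, gave 35 calls and 0 members, and not every sample was most like its own number. Since wild-type 4 has no PROSER1 KO library of its number, log2 fold changes under the block equal those without wild-type 4. Sign changes under the block therefore add nothing to those of that fit. Among the members, small differences changed sign: Ogt under quantile normalization (0.0066) and the replicate block (0.027), ranging from -0.092 to 0.097 when 1 library was left out; Hnrnpk under the replicate block (-0.0011), ranging from -0.0045 to 0.053; and Sfpq, ranging from -0.090 to 0.0088. Of 45 other named genes, 14 changed sign in some fit. Under the replicate block these were Airn (0.13), Oga (0.0090), Zmym3 (0.0021) and Ccs (0.013), and under quantile normalization Ccs (0.0013). With 1 library left out, the log2 fold changes ran from -0.015 to 0.027 for Rnps1, -0.032 to 0.14 for Srrm2, -0.64 to 0.13 for Airn, -0.038 to 0.0090 for Oga, -0.020 to 0.35 for Kcnq1ot1, -0.050 to 0.076 for Tet3, -0.033 to 0.15 for Tet2, -0.13 to 0.033 for 2210016F16Rik, -0.064 to 0.021 for Agtpbp1, -0.046 to 0.061 for Ccs, -0.064 to 0.16 for Gm16973, -0.16 to 0.37 for Gm21992, -0.019 to 0.043 for Taf1 and -0.022 to 0.015 for Zmym3. Gm4779, near Ogt, was no longer called with a pseudocount of 10, a minimum mean of 50, no variance trend or the replicate block. The mean Neat1 share of Malat1 in PROSER1 KO was 0.990 of that in wild-type, and 0.923 (without wild-type 1) to 1.04 (without wild-type 4) with 1 library left out, on either side of 1. With 4 against 3 libraries, the values remain compatible with any difference inside the 95% intervals given, and total counts per gene do not separate the forms of Neat1.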
